A study of Mus musculus with 4 samples.

Results

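Hox genes encode homeodomain transcription factors that give cells of the embryo their position along the body axis and, later, along the limb. In the mouse they lie in 4 clusters, Hoxa, Hoxb, Hoxc and Hoxd. Within a cluster, genes with low numbers act towards the head, and genes with high numbers act towards the tail and the far end of the limb. Cultured fibroblasts largely keep the Hox pattern of the body site they came from, so the set of active Hox genes can be read as a record of position.

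The clusters were examined in mouse embryonic fibroblasts (MEFs, fibroblasts grown from embryos). The Hox loci were taken as all loci of the deposited table that carry a transcript ID and overlap 1 of 4 windows of the mm9 genome build. The Hoxa window is on chromosome 6 from 52104000 to 52214000 and the Hoxb window on chromosome 11 from 96053000 to 96232000. The Hoxc window is on chromosome 15 from 102748000 to 102868000 and the Hoxd window on chromosome 2 from 74505000 to 74604000. They held 37 of the 17576 loci of the table: 13 in Hoxa, 9 in Hoxb, 9 in Hoxc and 6 in Hoxd.

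The cells were H3.3-HA knock-in MEFs of the C57BL/6 strain, in which a cDNA for HA-tagged H3.3 replaces H3f3b, and both groups compared carried this allele. One group was naive and the other had been pretreated, and both were then given interferon-beta, an antiviral cytokine, at 100 U/ml for 1 h before polyA RNA was collected. Each group is 1 library, so the values carry no replicate error and no test between the conditions was possible. The labels used here give neither the length of the pretreatment nor the age or body region of the embryos, and they do not say whether embryos were pooled. They name the assay both as RNA-seq and as scTSS-seq, and the values were read as RNA-seq. The 0 h libraries were not analysed here.

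The files do not pair the loci with gene symbols: of 55 distinct transcript IDs at the Hox loci, 0 were found in the gene tables used here. A locus is therefore called by its cluster and its mm9 position, and which gene it holds was not assigned. It need not be a single Hox gene, or a Hox gene at all. RefSeq for the GRCm38.p6 assembly lists 11 Hox symbols in Hoxa, 10 in Hoxb, 9 in Hoxc and 9 in Hoxd. The loci here number 13, 9, 9 and 6, so counts of loci are not counts of Hox genes. For the same reason the lists of Hox cofactors, chromatin regulators and position genes were not applied, and the fibroblast label was not checked against marker genes. The direction in which each cluster runs was taken from the order of Hox symbols in RefSeq for the GRCm38.p6 assembly. Along the chromosome that order runs from low to high numbers in the Hoxa cluster. In the Hoxb, Hoxc and Hoxd clusters it runs from high to low numbers, with 1 neighbour out of order in Hoxb and 1 in Hoxd. It was assumed to be the same in mm9, and no position was carried from one build to the other.

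Levels are in FPKM, fragment counts divided by transcript length and library total, a scale on which loci of different length can be set beside each other. The number of reads is unknown. At loci listed at 0 in a single library, reads were inferred from the authors' p-values. By this estimate the value of 1 pretreated read was 2.03 times that of 1 naive read. That puts the depth of pretreated relative to naive at 0.492. Bulk RNA cannot tell fewer cells that express a gene from less RNA per cell.

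Most Hox loci were at low levels. At least 1 FPKM was reached by 10 of the 37 loci (27.0%) in the naive library, against 58.4% of all loci with a transcript ID. The same 10 loci reached it in the pretreated library, against 57% of all. The median Hox locus measured 0.330 FPKM (naive) and 0.259 FPKM (pretreated), beside 1.74 and 1.58 FPKM for all loci with a transcript ID. The 10 loci above the level held 89.1% of the summed Hox FPKM in the naive and 91.6% in the pretreated library. The 3 highest, 1 each in Hoxa, Hoxc and Hoxb, held 58.4% in either library.

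The level was then followed along each cluster. Each window was divided at its middle, a division chosen after the values were seen. On the high-numbered side, 9 of 15 loci reached 1 FPKM in each library. On the low-numbered side, 1 of 22 did so, a Hoxc locus that shares its span with 3 other Hox loci. Counted among the Hox loci alone, shared spans were more frequent on this side. They held 6 loci in Hoxa, 2 in Hoxb, 4 in Hoxc and 2 in Hoxd, against 2 Hoxa loci on the high-numbered side. The highest Hoxb locus, also on the high-numbered side, shares its span with a locus that has no transcript ID. Loci with a shared span are placed by its middle, and how reads were split between them is not known. These low-side spans of Hoxa, Hoxc and Hoxd cross the middle of their window. The high-numbered side held 86.7% of the summed Hox FPKM in the naive and 90.1% in the pretreated library. This share was 89.95% and 92.3% in Hoxa, 88.4% and 91.1% in Hoxb, 78.8% and 82.8% in Hoxc, and 98.4% and 99.6% in Hoxd, naive first. These shares depend on where the window is divided, since the highest Hoxb and Hoxc loci have their middle at 40.4% and 43.1% of the window, counted from the high-numbered end. Nor were the loci nearest that end all expressed. The outermost Hoxb locus, at 2.12% of the window, was listed at 0 (naive) and at 0.456 FPKM (pretreated). The Hoxc loci at 16.8% and 23.6% were at most 0.0885 FPKM in either library. In the Hoxd window the outermost locus starts at 74530005 and has its middle at 26.9% of the window. No Hoxd locus is listed nearer the high-numbered end, so the level there is not known.

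**Figure D1:**
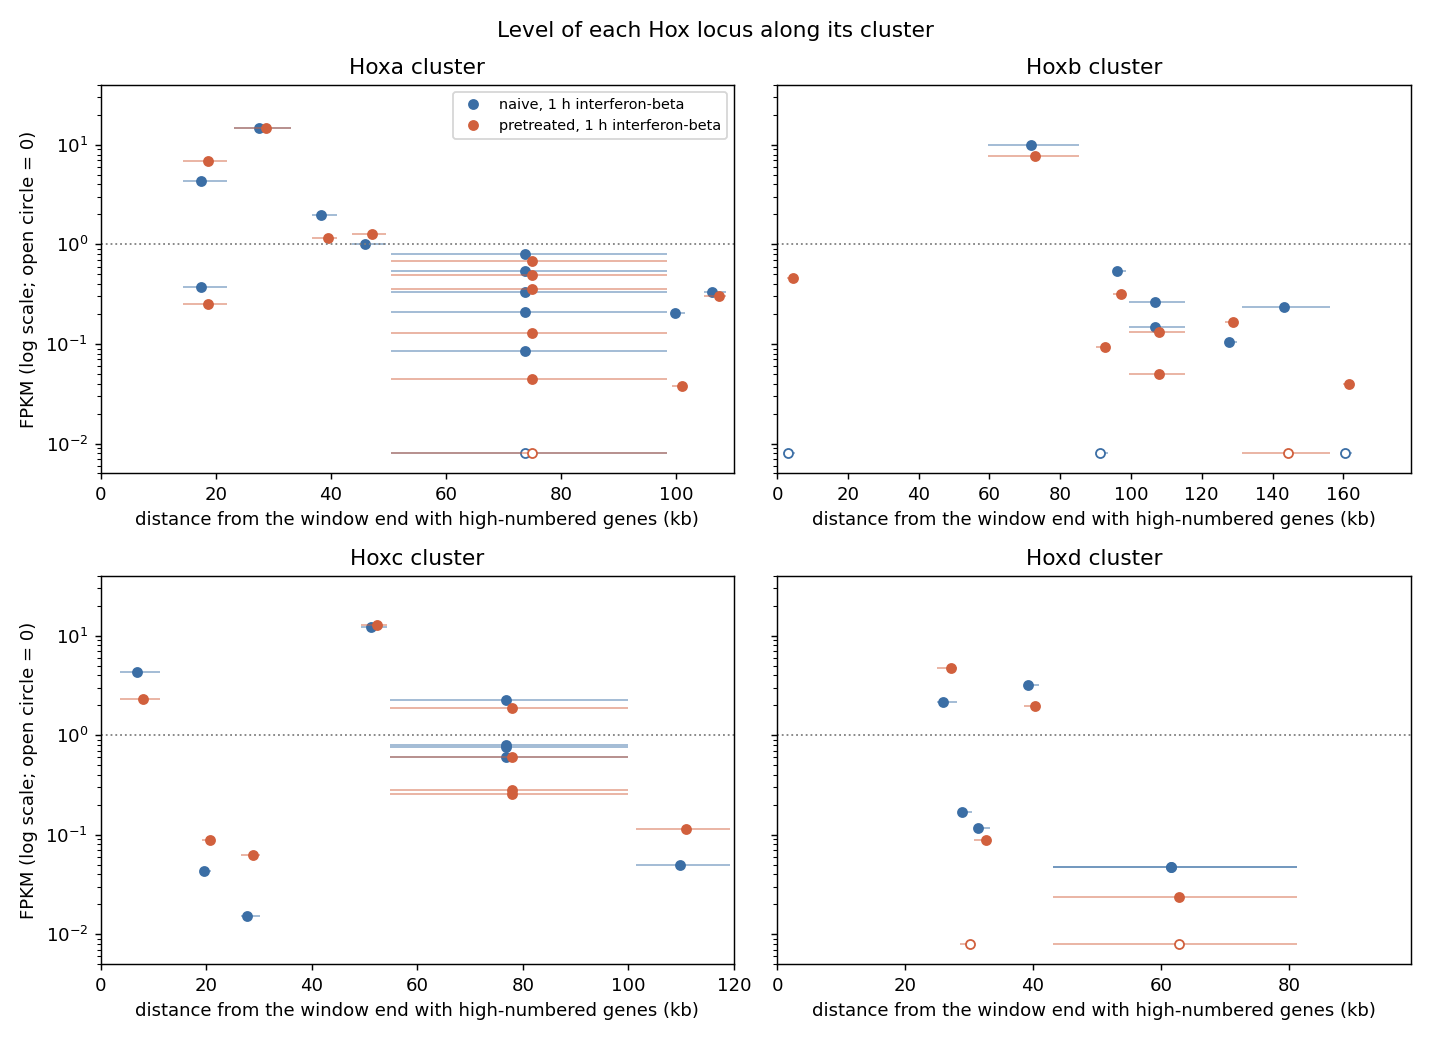
FPKM (log axis) of each Hox locus in naive (blue) and pretreated (orange) cells, 1 library each, against distance in kb from the window end where high-numbered genes lie; points stand at the middle of a locus, shifted slightly sideways by library, thin lines show its span, and open circles are values of 0. The 10 loci above the dotted line at 1 FPKM are the same in both libraries, and 9 of them have their middle in the left part of the window, before its midpoint.

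In the Hoxa cluster, the highest locus lies from 52180961 to 52190853, at 25.5% of the window's length from its high-numbered end. It measured 14.6 FPKM (naive) and 14.9 FPKM (pretreated), and it was the highest Hox locus in both libraries. Its log2 change, here always that of FPKM + 1 and pretreated minus naive, was 0.025. This scale understates the change of low loci. The locus stood above 82.0% of all loci with a transcript ID in naive cells and above 83.5% in pretreated cells.

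The next Hoxa locus towards the high-numbered end, XLOC_021369, from 52192105 to 52199785, measured 4.39 FPKM (naive) and 6.81 FPKM (pretreated), a log2 change of 0.54. A second locus of the table has the same span and measured 0.371 FPKM (naive) and 0.253 FPKM (pretreated). The 2 loci thus differed in direction, and how reads were divided between them is not known. In the authors' deposited table the q-value of XLOC_021369 was 0.162.

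Towards the low-numbered end, the locus from 52173000 to 52177369 measured 1.97 FPKM (naive) and 1.15 FPKM (pretreated), a change of -0.47. Its neighbour from 52164499 to 52170389 measured 1.02 FPKM (naive) and 1.28 FPKM (pretreated), a change of 0.18. These neighbours differed in direction, and their order was reversed between the libraries. The other 9 Hoxa loci ran from 0 to 0.799 FPKM in the naive and from 0 to 0.681 FPKM in the pretreated library, 7 of them lower and 2 higher in the latter. Of the 9, 6 share a single span of 47924 bp, from 52115673 to 52163596, and how reads were split between these loci is not known.

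In the Hoxb cluster a single Hox locus was above 1 FPKM. It lies from 96112518 to 96138213 and has 3 transcript IDs. It measured 9.87 FPKM (naive) and 7.70 FPKM (pretreated), a log2 change of -0.32, with a q-value of 0.171 in the authors' deposited table. A locus without a transcript ID has the same span and measured 0.691 FPKM (naive) and 1.22 FPKM (pretreated). Their directions differed, and how reads were split between them is not known. Of the summed Hoxb level the highest Hox locus held 88.4% (naive) and 86.0% (pretreated). The highest locus of Hoxa held 58.9% and 56.4% of its cluster's sum, and that of Hoxc 57.7% and 69.4%, naive first. The other 8 Hoxb loci ran from 0 to 0.546 FPKM (naive) and from 0 to 0.456 FPKM (pretreated), 4 lower and 4 higher. The authors tested 1 of these 8. Of the low Hoxb loci, 3 were listed at 0 in the naive and 1 in the pretreated library. Of these 4, the locus from 96184440 to 96209244 measured 0.235 FPKM (naive) and was listed at 0 in the pretreated library. Its p-value of 2.66e-05 in the authors' deposited table was the lowest of all 37 Hox loci, but the authors left it untested and made no call. The outermost locus at the high-numbered end, listed at 0 (naive) and at 0.456 FPKM (pretreated), had a p-value of 0.00628 in the authors' deposited table. The other two were listed at 0 in naive cells and at 0.0923 and 0.0394 FPKM in pretreated cells, with p-values of 0.0903 and 0.159 in the authors' deposited table.

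The highest Hoxc locus, from 102797296 to 102802152, measured 12.1 FPKM (naive) and 12.7 FPKM (pretreated), a log2 change of 0.065. It was the second highest Hox locus in both libraries, and its values differed by a ratio of 1.05. At the high-numbered end of the window, XLOC_008862, from 102751562 to 102759245, measured 4.36 FPKM (naive) and 2.31 FPKM (pretreated). Its log2 change of -0.69 was the lowest of the 10 loci, and its q-value in the authors' deposited table was 0.115.

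The remaining Hoxc locus above the level measured 2.23 FPKM (naive) and 1.89 FPKM (pretreated), a change of -0.16. It shares its span, from 102802828 to 102847994, with 3 other Hox loci, and the 4 together summed to 4.40 FPKM (naive) and 3.04 FPKM (pretreated). Loci without a transcript ID have this span too, at 1.75 and 2.09 FPKM, and at 0.385 and 2.54 FPKM, naive first. Both were higher in the pretreated library. How reads were split is not known, so the sum over the 4 does not stand for the whole span. The 6 Hoxc loci below the level ran from 0.0153 to 0.800 FPKM (naive) and from 0.0623 to 0.607 FPKM (pretreated), 3 lower and 3 higher. The 3 higher ones had FPKM ratios of 2.03, 2.28 and 4.06, from naive levels of 0.0436, 0.05004 and 0.0153 FPKM. By the depth estimate above, their ratios of reads, pretreated to naive, were 0.9996, 1.12 and 1.999. The FPKM ratio of 2.03 thus stands for about equal reads in a library of lower depth. The same depth factor applies to every Hox locus and leaves the FPKM ratios as they are. How many reads these 3 Hoxc loci had is not known, and the authors did not test them.

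The Hoxd cluster had the lowest levels and the widest range of changes. XLOC_014036, from 74530005 to 74533159, measured 2.15 FPKM (naive) and 4.68 FPKM (pretreated). Its ratio was 2.18 and its log2 change 0.85, the highest of the 10 loci. By the depth estimate above, its ratio of reads, pretreated to naive, was 1.07. XLOC_014039, from 74543546 to 74545984, measured 3.19 FPKM (naive) and 1.96 FPKM (pretreated), a change of -0.50. The order of the Hoxd pair was therefore reversed between the libraries. The other 4 Hoxd loci were at most 0.168 FPKM (naive) and 0.0888 FPKM (pretreated), and all 4 had the lower value in the pretreated library. Of these, 2 were listed at 0 there. From their p-values in the authors' deposited table, 2 reads and 1 read were inferred for them in the naive library. No read counts were at hand to check this. The authors tested none of the 4.

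Of the 19 Hox loci that the authors tested, their deposited table called 1, XLOC_014036, at a q-value of 0.0479. Over the table the authors called 15.8% of 13388 tested loci, 3.91% as higher and 11.9% as lower in pretreated cells, so 1 call in 19 does not set the Hox loci apart. The other 18 had q-values from 0.115 to 0.974 in the authors' deposited table. These q-values compare the reads of 2 libraries, not the conditions. At a q-value under 0.01 the call is lost.

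The comparison of pretreated with naive cells used the 10 loci with a mean of at least 1 FPKM, all of which were above 1 FPKM in each library. Of the 10, the number past 2-fold in pretreated cells was 0 on the higher side and 0 on the lower side. The background was 2.83% higher and 7.12% lower among all 10228 loci compared, 9.94% together, so that a count of 0 in 10 is near it. With changes from -0.69 to 0.85, 5 loci were higher and 5 lower, against 62.8% lower among all loci compared. The median change was -0.068, beside -0.16 for all loci compared. Between the quartiles of all loci, -0.51 and 0.17, lay 6 of the 10, with 1 under the lower and 3 over the upper quartile. XLOC_014036 passed 2-fold when changes were taken relative to the median of all loci, at 1.01, with a pseudocount of 0.1, at 1.09, and as a plain ratio.

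**Figure D2:**
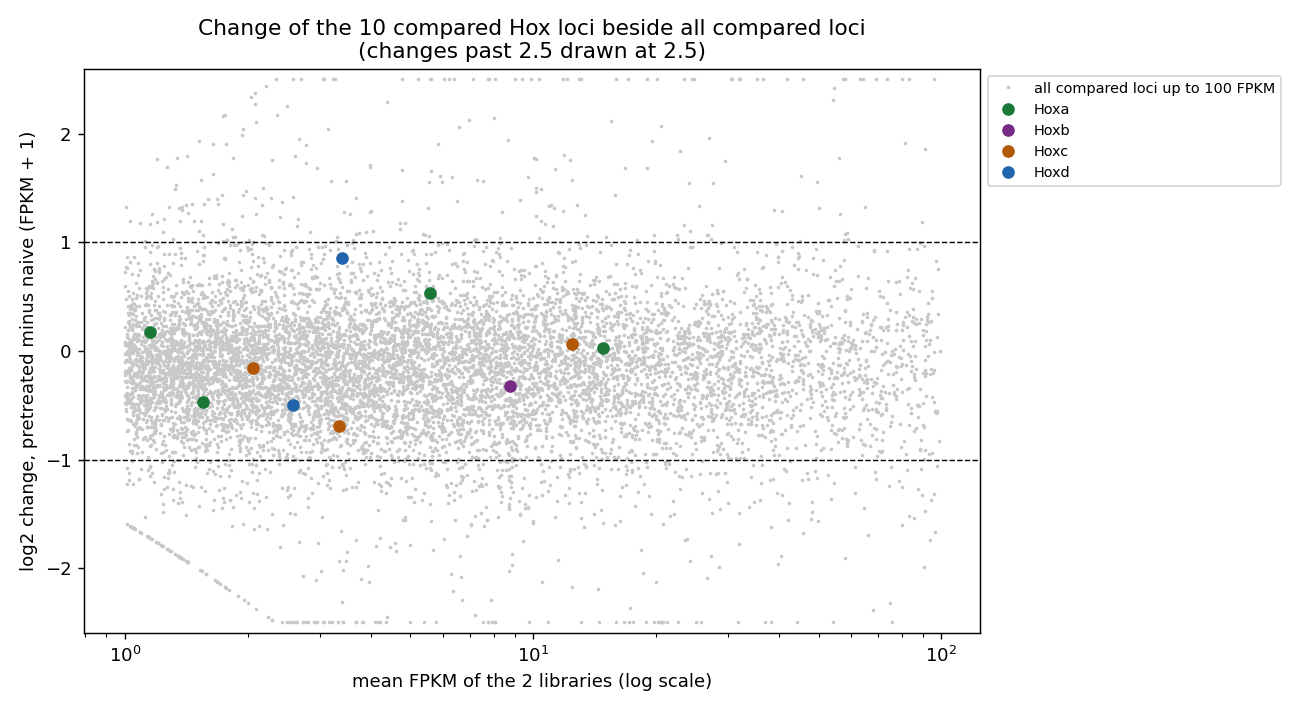
Log2 change of FPKM + 1, pretreated minus naive, against mean FPKM (log axis) for the 10 compared Hox loci, coloured by cluster, over all compared loci up to 100 FPKM (grey); dashed lines mark 2-fold. The Hox loci sit between -0.69 in Hoxc and 0.85 in Hoxd, inside the dashed lines, and the highest Hoxa and Hoxc loci lie close to 0.

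The clusters were then set beside each other by their summed level. Hoxa summed to 24.9 FPKM (naive) and 26.5 FPKM (pretreated), Hoxc to 21.0 and 18.4 FPKM, Hoxb to 11.2 and 8.96 FPKM, and Hoxd to 5.72 and 6.75 FPKM, naive first. For these loci the order of the clusters was the same in both libraries. The sums cover unequal numbers of loci, 13 in Hoxa, 9 in Hoxc, 9 in Hoxb and 6 in Hoxd. With the loci that have no transcript ID added, the Hoxc sum was above the Hoxa sum in both libraries. As shares of the Hox total, 62.8 FPKM (naive) and 60.5 FPKM (pretreated), Hoxa held 39.6% and 43.7%, Hoxc 33.5% and 30.3%, Hoxb 17.8% and 14.8%, and Hoxd 9.11% and 11.2%.

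The ratio of pretreated to naive sums was 1.06 for Hoxa, 0.874 for Hoxc, 0.802 for Hoxb and 1.18 for Hoxd. The direction turned in 3 of the 4 clusters with the choice of loci. Without XLOC_014036, its highest locus, the Hoxd ratio was 0.581. Without loci that overlap another locus of the table the Hoxb ratio was 1.21 and the Hoxa ratio 0.974. That choice drops the highest Hoxb locus. The Hoxb ratio then rests on 6 loci of at most 0.546 FPKM (naive) and 0.456 FPKM (pretreated), so its turn comes from values near 0. The median changes of the compared loci were 0.10 in Hoxa (4 loci), -0.32 in Hoxb (1 locus), -0.16 in Hoxc (3 loci) and 0.18 in Hoxd (2 loci). With 1 library in each group, differences of this size between clusters cannot be told apart from variation between cultures.

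**Figure D3:**
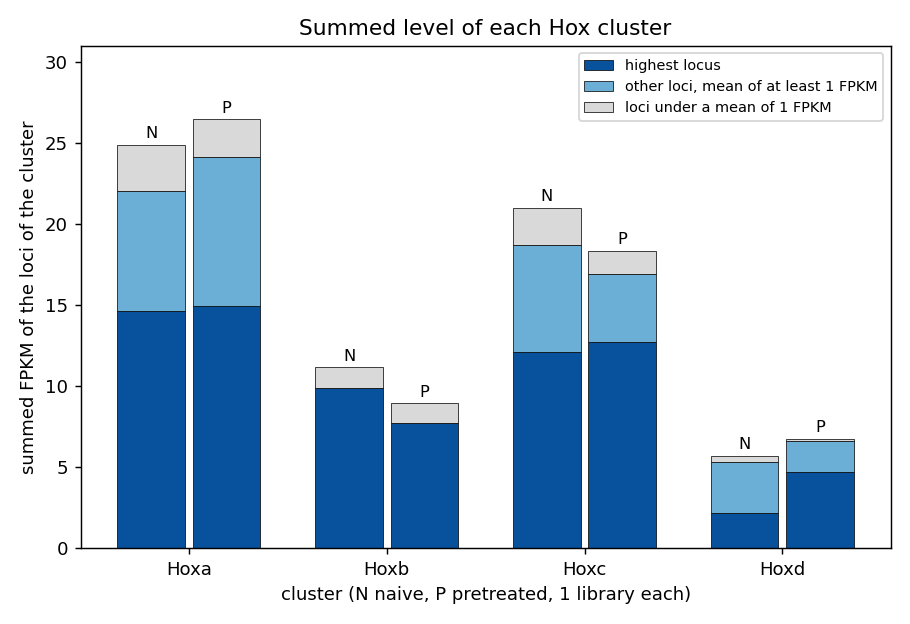
Summed FPKM of the loci of each cluster in naive (N) and pretreated (P) cells, 1 library each, divided into the highest locus of the cluster by mean FPKM, other loci with a mean of at least 1 FPKM, and the rest. For these loci, which all have a transcript ID, the order Hoxa, Hoxc, Hoxb, Hoxd holds in both libraries. The highest locus makes up most of Hoxa, Hoxb and Hoxc in both libraries. In Hoxd it is the larger part in the pretreated library alone.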

How the data were processed

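The authors deposited 1 table with FPKM values and p-values per locus for the naive and the pretreated library at 1 h, in a Cuffdiff layout per the file headers. The submitters' processing notes name TopHat, Cufflinks 1.2.1 and mm9. The annotation, filters, strand setting and scaling between libraries are not given in the sources used here. Deposited starts were raised by 1. Changes are differences of log2(FPKM + 1), counted past 2-fold at a mean of at least 1 FPKM, and the count was tested on simulated data. Reads at loci listed at 0 were inferred from the deposited p-values, only where these gave close to a whole number of at most 4. The value of 1 read was compared at 14 spans. In each cluster all loci above the filter are given with both values, and the rest by range and count. The Hox loci and lists were chosen with earlier results of these data known. No gene symbol was assigned to a locus, since no annotation of mm9 was used and positions were not converted between builds. The alternatives were another pseudocount, filter, centring, threshold or choice of loci. Python 3.11.15, pandas 2.3.3 and scipy 1.17.1 were used.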

Additional observations from a re-analysis of the deposited data

Results flagged for a closer look

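A locus of the Hoxc window without a transcript ID, on chromosome 15 from 102802828 to 102847994, measured 0.385 FPKM (naive) and 2.54 FPKM (pretreated), a log2 change of 1.35. It is given here because it lies outside the loci compared and its level was higher in the pretreated library. The authors' deposited table called it at a q-value of 0.0208. It shares its span with 4 Hox loci and with another locus that has no transcript ID. The latter measured 1.75 FPKM (naive) and 2.09 FPKM (pretreated) and was not called by the authors. How reads were split between all these loci is not known.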

How the results depend on the processing

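No paired analysis was possible because a group is a single library, and for the same reason none could be left out. The count of loci at least 2-fold higher was 1 in place of 0 with a pseudocount of 0.1, after centring on the median of all loci, and as a plain ratio, which was added after seeing the data. At 1.5-fold, 1 locus was higher and 1 lower. Without a filter the cluster medians were -0.043 (Hoxa), -0.13 (Hoxb) and -0.051 (Hoxd), so those of Hoxa and Hoxd changed sign. A mean of at least 5 FPKM left 4 loci, with a median of 0.045, of 0.28 in Hoxa and of 0.065 in Hoxc, and no value for Hoxd. Centring gave a median of 0.091, with 0.26 (Hoxa), -0.16 (Hoxb), -0.0023 (Hoxc) and 0.33 (Hoxd). Without overlapping loci the Hoxc median was -0.31, and Hoxb had no value. The ratio of sums without the highest locus was 0.967 (Hoxb), 0.633 (Hoxc) and 0.581 (Hoxd). Without overlapping loci it was 0.974 (Hoxa) and 1.21 (Hoxb), the latter from 6 loci that are all under 1 FPKM. With loci that have no transcript ID it was 0.709 (Hoxb) and 0.982 (Hoxc). At 0.5 FPKM, 16 (naive) and 12 (pretreated) loci counted as expressed, in place of 10 in each, and at 5 FPKM, 3 (naive) and 4 (pretreated). At a q-value under 0.01, the authors' table called 0 Hox loci. These values moved with the loci and the scale entered, and other causes were not tested. The lower depth of the pretreated library limits values near 0.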

Other observations

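Another 7 loci of the windows had no transcript ID. In the Hoxb window, the one from 96141573 to 96141831 measured 6.06 FPKM (naive) and 0.950 FPKM (pretreated), and the one from 96109860 to 96110221 measured 2.36 and 0.369 FPKM. One more Hoxb locus, from 96141119 to 96141481, differed in the other direction, at 1.62 FPKM (naive) and 4.04 FPKM (pretreated). Their spans are 259, 362 and 363 bp. Their q-values, 0.236, 0.236 and 0.265 in the authors' deposited table, carry no call. The other 4 differed by less than 2-fold on the log2(FPKM + 1) scale.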
